A study of Mus musculus with 7 samples.

Results

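The expression of 10 genes of the BMP (bone morphogenetic protein) pathway was followed in mouse neural crest cells (NCCs). They were chosen by symbol from the 32285 genes in the files: the ligands Bmp2, Bmp4, Bmp5 and Bmp7, the type I receptors Bmpr1a and Bmpr1b, the type II receptors Bmpr2, Acvr2a and Acvr2b, and the secreted antagonist Grem1. The data were droplet single-cell RNA sequencing of 7 libraries of sorted EGFP-positive cells, in which unique molecular identifiers (UMIs) count the captured transcripts of each gene. All libraries carried Wnt1-Cre/+ and the ROSA-EGFPf/+ reporter in embryos of a mixed Swiss-Webster background, so that Wnt1 regulatory sequence, which is active in the dorsal neural tube and the crest that leaves it, decided which cells were labelled. Controls gave 4 libraries, of which 2 were taken at E10.5 and 1 each at E8.5 and E9.5, and 3 libraries (2 at E10.5, 1 at E9.5) have titles that call them Tbx1 null. The genotype entry of those 3 reads Tbx1+/-, which goes against their titles, and they are called Tbx1 null here as the titles do. The study's own description of its libraries gives them as Tbx1-/-. It also gives Tbx1 null replicate 1 of E10.5 fewer somites than either control library of that stage. The part of this in the genotype differences was not tested. The E8.5 library was made with version 2 of the 10x 3′ kit, the 2 null libraries of E9.5 and E10.5 replicate 1 with version 3, and the other 4 with version 3.1. Each library was a pool of embryos of 1 genotype, so the library is the replicate and p-values measure the spread between such pools. The tissue was the anterior part of the embryo at E8.5, the pharyngeal apparatus with the heart and the neural tube at E9.5, and the same without the first arch at E10.5.

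BMP ligands are secreted as dimers and bind a complex of type I and type II receptor kinases, and the type I receptors then phosphorylate Smad1, Smad5 and Smad9, which enter the nucleus with Smad4. Gremlin 1, the product of Grem1, binds BMP ligands outside the cell and keeps them from the receptors. In the pharyngeal arches and the outflow tract, BMP signalling is known for its part in the survival of crest cells and in their differentiation into smooth muscle.

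The libraries held 5987 to 12047 cell barcodes and 140264662 to 234844769 UMIs, and 5587 to 9557 cells per library were kept. Each pair of libraries shared 0 to 44 barcodes. The mesenchymal gate (at least 2 UMIs of Twist1, Prrx1 and Prrx2 in sum) held 2233 to 7081 cells per library, and at E10.5 all 5 of the mesenchymal check genes (Col1a2, Col3a1, Pdgfra, Lum, Dlx2) were detected in every library at a summed 392 to 471 CPM (UMIs scaled to the same total in each sum of cells), against 13.6 to 22.3 CPM in the neural gate. The 2 libraries labelled Tbx1 null at E10.5 still held Tbx1 UMIs in mesenchymal cells, at 5.48 and 5.02 scaled CPM against 7.19 and 4.34 in the controls, so this gene did not check the label; a 3′ tag can lie outside a deleted part. The mesenchymal gate of Tbx1 null replicate 2 also carried 5 neural check genes (Pax6, Nes, Tubb3, Stmn2, Hes5) at a summed 998 CPM, against 95, 200 and 286 CPM in the other E10.5 libraries, and Sox10 in that gate was at 1.27 and 1.41 CPM in the controls and 15.8 and 35.5 CPM in the nulls. Where it changed a call, the value is therefore also given after leaving out mesenchymal cells that held 2 or more UMIs of Sox10 or of 4 neural markers (Sox1, Sox2, Sox3, Elavl3), which removed 12% and 3.22% of control and 29.2% and 51.8% of Tbx1 null mesenchymal cells at E10.5.

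All 10 genes are annotated as protein coding, on chromosomes 1 (Bmpr2), 2 (Bmp2, Bmp7, Acvr2a and Grem1), 3 (Bmpr1b), 9 (Bmp5 and Acvr2b) and 14 (Bmp4 and Bmpr1a). In mm10 coordinates Grem1 spans chr2:113746164-113758646 on the minus strand and Bmp4 spans chr14:46383520-46390669 on the minus strand. RefSeq windows of the 250 bases before the transcription start (GRCm38.p6) were matched for 8 of the 10 genes, all but Bmp2 and Bmp7. The windows of Grem1, the antagonist whose level differed between genotypes, and of Bmp4, the ligand that rose most between stages, are shown for context, at chr2:113758649-113758898 and chr14:46390670-46390919, both read on the minus strand from 5′ to 3′. Capitals mark GGCGCC, a palindrome of the GC-rich kind that SMAD proteins bind.
Grem1: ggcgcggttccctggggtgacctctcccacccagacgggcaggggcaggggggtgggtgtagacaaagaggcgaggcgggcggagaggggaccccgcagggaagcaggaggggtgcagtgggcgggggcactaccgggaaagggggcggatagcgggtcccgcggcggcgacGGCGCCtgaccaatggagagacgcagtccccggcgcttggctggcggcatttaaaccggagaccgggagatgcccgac
Bmp4: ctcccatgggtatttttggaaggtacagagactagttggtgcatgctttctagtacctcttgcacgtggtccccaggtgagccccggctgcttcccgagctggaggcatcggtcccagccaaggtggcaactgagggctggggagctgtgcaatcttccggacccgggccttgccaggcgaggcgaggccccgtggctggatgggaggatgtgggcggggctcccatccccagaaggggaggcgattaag
On both strands, GGCGCC was found in the windows of Grem1, Bmpr1a and Bmpr2, and in 9.59% of the 32851 windows of all genes. CATCTG, a HAND-type E-box, was found in the Bmpr1b window at chr3:141982265-141982514 but not in the other windows of this gene, and in 14.4% of all windows. GGTGTG, a T-box half-site, was found for Acvr2a and in 16.3% of all windows. The core that forkhead factors bind, TGTTTA, is in 12% of all windows, and a core of the zinc-finger factors of the Gata4 family, AGATAA, is in 9.99%; neither was in the windows of the 8 genes. The GC content was 72% in the Grem1 window and 63.2% in the Bmp4 window, against a median of 52.4% over all windows.

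Levels are given below as scaled CPM: the CPM of a gene over the summed cells of a gate and library, scaled further by TMM, which sets most genes level across sums. The number of libraries limits every comparison, and intervals quoted for 1 library cover counting error only. The genes differ in how well their 3′ ends are captured, so levels are compared between samples and not between genes.

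In mesenchymal NCCs the ligands followed different courses with stage. At E8.5, 66.7% of the cells of this gate held 2 or more Sox10 or neural-marker UMIs. At E9.5 that share was 22.8% in the control and 17.7% in the Tbx1 null library. The part of these cells in the E8.5 levels of the 10 genes was not tested. Bmp4 was at 0.796 scaled CPM in the E8.5 library, at 2.72 in the control and 2.28 in the Tbx1 null library of E9.5, and at 21.9 and 28.4 in the controls and 16.0 and 21.3 in the nulls at E10.5. Each E10.5 library thus lay above every earlier one. Bmp2 took the same order at lower counts, at 0.718 at E8.5, 1.62 and 1.43 at E9.5, and 2.61, 3.03, 2.73 and 2.65 in the 4 libraries of E10.5. Bmp5 was lowest at E9.5, at 3.88 scaled CPM at E8.5, 1.00 and 1.13 at E9.5, and 3.29 and 4.47 in the controls but 1.91 and 1.59 in the nulls at E10.5. Bmp7 was at 5.86 at E8.5 and at 2.66 and 2.10 at E9.5. At E10.5 Bmp7 was at 3.07 and 2.29 in the controls and at 7.21 and 7.60 in the nulls, with no overlap between the genotypes, and Sox10 and neural transcripts in the gate were higher in the nulls too.

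Among the receptors, Bmpr1a, the widely expressed type I receptor, was at 27.2 scaled CPM at E8.5, 35.9 and 40.3 at E9.5. Its E10.5 levels were 59.4 and 68.6 in the controls and 49.0 and 46.3 in the nulls. Bmpr1b, the type I receptor known from cartilage condensations, was at 0.699 at E8.5, from 36 UMIs, and at 6.48 and 7.21 at E9.5. The 2 control libraries of E10.5 reached 14.9 and 16.0 for Bmpr1b, while the 2 nulls, at 5.32 and 6.08, stayed at the level of E9.5. Bmpr2, the type II receptor dedicated to BMPs, was at 7.26 at E8.5, 16.8 and 18.7 at E9.5. Its E10.5 levels were 36.6 and 43.8 in the controls and 26.0 and 37.0 in the nulls, which overlapped when all libraries and gates were scaled together, whereas both nulls were below both controls when the mesenchymal sums of E10.5 were scaled alone. The activin-type II receptors differed, with Acvr2a at 5.78 at E8.5, 8.21 and 7.00 at E9.5, and between 8.29 and 16.2 at E10.5, whereas Acvr2b had no order by stage, with 117 at E8.5, 93.4 and 96.9 at E9.5, and 93.2 and 69.1 in the controls and 112 and 127 in the nulls of E10.5. Grem1 was at 1.24 scaled CPM at E8.5, 0.602 in the control and 0.301 in the null of E9.5, 2.59 and 1.95 in the E10.5 controls, and 0.485 and 0.592 in the E10.5 nulls. At E9.5 and at E10.5 the null libraries were therefore below the control libraries of the same stage for Grem1. For the single libraries of E9.5, the 95% Poisson interval of Grem1 was 0.462 to 0.772 in the control and 0.214 to 0.411 in the null, and the genotypes were not tested against each other at that stage.

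**Figure D1:**
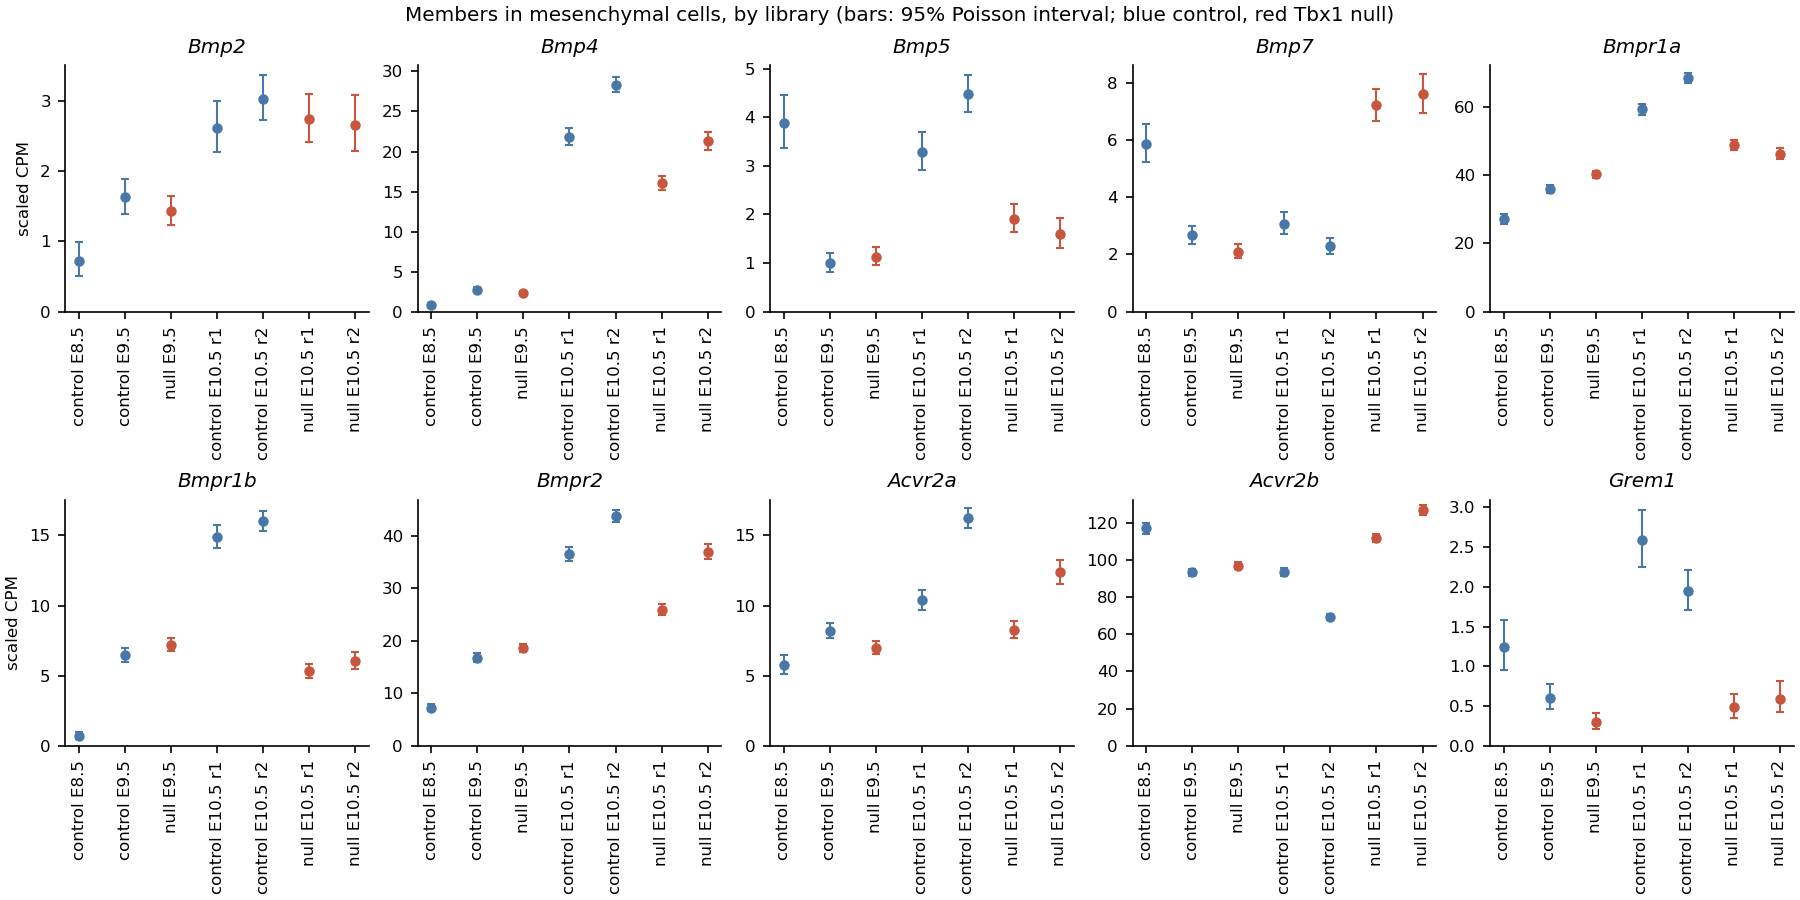
Scaled CPM (y axis, linear, from 0) of each of the 10 genes in mesenchymal cells of the 7 libraries (x axis), with points for libraries, blue for control and red for Tbx1 null, and bars for the 95% Poisson interval. Bmp4 rises from 0.796 at E8.5 to 16.0 or more at E10.5. At E10.5 Bmp4, Bmp5, Bmp7, Bmpr1a, Bmpr1b, Acvr2b and Grem1 do not overlap between the genotypes. None of the 10 genes passed the genotype test in these cells. The Bmp7 difference was 0.42 in place of 1.45 (log2) without cells holding Sox10 or neural-marker UMIs.

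The stage difference was tested between the 2 libraries of E9.5 and the 4 of E10.5 with genotype as a term (edgeR quasi-likelihood test, Benjamini-Hochberg adjusted over all genes). Of the 10 genes, 4 were higher at E10.5 at an adjusted p under 0.05 and none was lower, where 23.6% of the 16456 genes tested passed. All 10 had a positive estimate, but that of Acvr2b was 0.03 ± 0.20 and kept its sign in only 6 of 13 alternatives. Bmpr1b kept its sign in 11 of 13 and Bmp7 in 12 of 13. Bmp4 rose by 3.11 ± 0.24 (log2 fold change ± SE, adjusted p = 0.00446), Grem1 by 1.36 ± 0.39 (adjusted p = 0.0425), Bmpr2 by 0.99 ± 0.23 (adjusted p = 0.0237) and Bmp2 by 0.85 ± 0.25 (adjusted p = 0.0453). Bmp5 had an estimate of 1.24 ± 0.38 that did not pass (adjusted p = 0.0515). Without cells holding Sox10 or neural-marker UMIs the 4 calls stood, and Bmp5 (1.59, adjusted p = 0.00817) and Bmpr1a (0.59, adjusted p = 0.0414) passed too. Without the control library of E9.5 none of these calls was left, nor any among all genes, and the Bmp4 estimate was 3.02 with an adjusted p of 0.0604. Without any other 1 library Bmp4 passed, Bmp2 did not pass in any of these fits (0.79 to 0.90) and kept its call in only 4 of 13 alternatives, Grem1 passed only without Tbx1 null replicate 1 of E10.5, and Bmpr2 was lost without control replicate 1 of E10.5 (1.01, adjusted p = 0.0629) or the null library of E9.5 (1.25, adjusted p = 0.079). The dissection left out the first arch only at E10.5, and both stages mixed kit versions 3 and 3.1, so stage and dissected region cannot be told apart. Scaling by total counts alone moved the median log2 fold change of all genes from 0.07 to 0.58 and the share of called genes that were higher at E10.5 from 48.4% to 91.3%; the estimates of the 4 genes were positive under both scalings.

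At E10.5 the genotypes were compared in mesenchymal cells, to ask whether the BMP genes of NCCs differ when Tbx1, which acts in the neighbouring tissues, is lost. None of the 10 genes passed the test over all genes, of which 0.1% (16 of 15925) did. At an unadjusted p under 0.05 there were 4 genes (Bmp5, Bmp7, Bmpr1b and Grem1) and 2387 among all genes, and DESeq2 called these 4 and 703 among all genes. Grem1 had the most negative estimate, at −2.09 ± 0.36 on the log2 scale (adjusted p = 0.161), followed by Bmpr1b at −1.46 ± 0.22 (adjusted p = 0.121) and Bmp5 at −1.17 ± 0.31 (adjusted p = 0.239). For each of these 3 the null libraries lay below both controls. Bmp7 had the one estimate above 1, at 1.45 ± 0.27 (adjusted p = 0.178), with both nulls above both controls. The other 6 genes had estimates from −0.45 (Bmp4) to 0.53 (Acvr2b). Among them, with the mesenchymal sums of E10.5 scaled alone, both nulls were also below both controls for Bmp4, Bmpr1a and Bmpr2. For Acvr2b both nulls were above both controls. How many of all genes separate in this way was not counted. Without the cells that held Sox10 or neural-marker UMIs the Bmp7 estimate was 0.42 (adjusted p = 0.644). Sox10 in this gate was at 1.27 and 1.41 CPM in the controls and 15.8 and 35.5 in the nulls, and the neural check genes were at 199.7 and 94.96 against 286 and 998 in sum. Bmp7 was at 7.21 and 7.60 scaled CPM in the same nulls, and the part of these transcripts in the result was not tested. Under the same exclusion Bmpr1b was at −1.47 (adjusted p = 0.0687), Grem1 at −1.73 (adjusted p = 0.243), Bmp5 at −0.61 (adjusted p = 0.443) and Bmp4 at 0.05. Of these 5, the Bmpr1b difference was the one as large as before. It was smaller, at −0.88, in the Hox3-positive cells described below, whose part in this gate differed between the genotypes. Within the libraries made with kit version 3.1 (all but Tbx1 null replicate 1) the estimates were 1.5 for Bmp7, −1.35 for Bmpr1b, −1.93 for Grem1 and −1.29 for Bmp5, and none passed. That fit has 1 null library, which is assumed to vary as the 2 controls do. When the genotype difference was compared between E9.5 and E10.5, a test added after seeing the data, none of the 10 genes passed, with 3 at an unadjusted p under 0.05 (Bmpr1b, Bmp7 and Bmp5), as were 717 of all 17275 genes, of which 0.00579% were called.

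The clearest genotype difference lay in the Foxf1-positive mesenchymal cells. Foxf1 encodes a forkhead factor of the mesenchyme around the foregut and pharynx, and this gate (at least 1 Foxf1 UMI) held 535 and 806 control and 536 and 336 null cells at E10.5, with Foxf1 itself at 130 and 111 scaled CPM in the controls and 129 and 135 in the nulls. Grem1 was at 8.47 and 6.31 scaled CPM in the control Foxf1-positive cells, from 110 and 93 UMIs. In the null libraries it was at 0.676 and 0.663, from 11 and 7 UMIs. Both nulls were below both controls, and the 95% Poisson intervals of the genotypes (5.09 to 10.2 over the controls, 0.266 to 1.37 over the nulls) did not meet. Grem1 fell by 3.45 ± 0.39 on the log2 scale, that is 10.9-fold (adjusted p = 0.0132), and it was the 1 of the 10 genes that passed, where 0.0629% of 12726 genes did. It passed in each of the 13 alternative settings, with estimates from −4.05 to −3.13 and adjusted p from 7.7e-13 to 0.0496. It was −3.22 (adjusted p = 0.035) without cells holding Sox10 or neural-marker UMIs and −3.41 within kit version 3.1, a fit with 1 null library.

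The share of cells with a Grem1 UMI was lower in both nulls than in both controls, and the shares were not tested. After each cell was thinned to 5000 UMIs, Grem1 was detected in 20 of 528 (3.79%, 95% Clopper-Pearson interval 2.33 to 5.79) and 23 of 800 (2.88%, 1.83 to 4.28) control Foxf1-positive cells. In the nulls it was detected in 2 of 533 (0.375%, 0.0455 to 1.35) and 4 of 335 (1.19%, 0.326 to 3.03). Without thinning these shares were 7.85% and 5.46% in the controls and 2.05% and 2.08% in the nulls. Sox10 cells, taken as a class that should lack Grem1, gave 2 of 184 (1.09%) and 0 of 504 control cells and 1 of 1066 (0.0938%) and 0 of 554 null cells after thinning, where a count of 0, read as up to 3 cells, allows a share of up to 0.595% and 0.542%. Median depth was 15369 to 25924.5 UMIs in Foxf1-positive and 18411 to 27939.5 in Sox10 cells. Both control shares in Foxf1-positive cells were above the highest share in Sox10 cells, and the null shares lay near or below it. That highest share rested on 2 of 184 cells of control replicate 1. Each null share was above the Sox10 share of its own library, at 0.375% against 0.0938% and 1.19% against at most 0.542%. The interval of null replicate 2 overlapped those of both control libraries, and that of null replicate 1 overlapped neither.

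The remaining 9 genes did not pass between the genotypes in Foxf1-positive cells. Bmp5 was at 5.93 and 7.26 scaled CPM in the controls and 3.50 and 3.12 in the nulls, with an estimate of −0.99 ± 0.31 (adjusted p = 0.299). Acvr2a had 15.7 and 28.2 in the controls and 7.99 and 14.3 in the nulls (−0.99 ± 0.35, adjusted p = 0.340). For both genes the nulls lay below the controls. With the Foxf1-positive sums of E10.5 scaled alone, the same held for Bmpr1a, Bmpr1b and Bmpr2, and for Acvr2b the nulls lay above the controls. How many of all genes separate in this way was not counted. Bmp2, at 7.70 and 11.1 against 12.3 and 10.9, and Bmp4, at 21.7 and 31.5 against 25.5 and 35.5, overlapped between the genotypes. Without Tbx1 null replicate 2, the calls rose from 1 to 4 of the 10 genes (Bmpr1b, Bmpr2 and Acvr2a besides Grem1), while those over all genes rose from 8 to 1296. Without Tbx1 null replicate 1, where 699 of all genes were called, Bmp7 passed besides Grem1, and its 2 null libraries were at 0.922 and 4.07 scaled CPM against 1.15 and 0.950 in the controls.

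**Figure D2:**
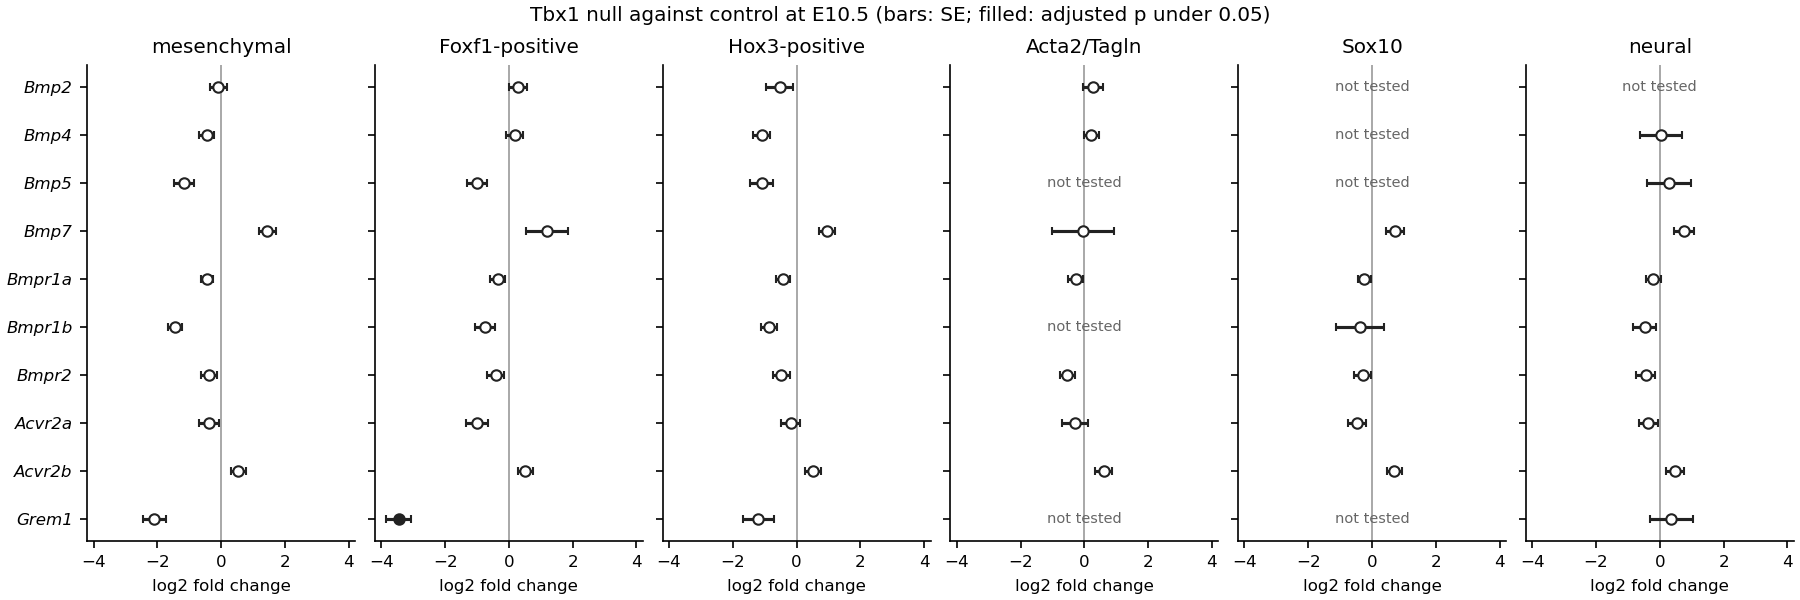
Log2 fold change of Tbx1 null against control at E10.5 (x axis, bars for the SE) for the 10 genes (rows) in 6 gates (panels), with filled points for an adjusted p under 0.05. Grem1 in Foxf1-positive cells, at −3.45, is the single filled point, and "not tested" marks genes under the filter on low counts.

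In the other gates no member passed between the genotypes. In Hox3-positive mesenchymal cells (at least 1 UMI of Hoxa3, Hoxb3 or Hoxd3, the code of arches 3 to 6), 5 of the 10 genes were at an unadjusted p under 0.05, as were 1836 of all 14813 genes. This gate held 1205 of 3310 and 1681 of 6614 control mesenchymal cells, and 1977 of 3192 and 1801 of 2233 null ones. Of its cells, 25.9% and 7.14% in the controls and 38.3% and 57.9% in the nulls held 2 or more Sox10 or neural-marker UMIs. DESeq2 called Bmp4 alone among the 10 and 232 of all genes, and edgeR called none of the 10 and 0.027% of all genes. Bmp4 was at 30.9 and 46.8 scaled CPM in the control and 16.3 and 20.3 in the null Hox3-positive cells (−1.10 ± 0.27, adjusted p = 0.313), and this estimate was −0.59 without cells holding Sox10 or neural-marker UMIs. Bmp7 had an estimate of 0.96 ± 0.25 (adjusted p = 0.322), which was −0.12 (adjusted p = 0.91) without those cells. Bmpr1b was at −0.88 ± 0.25 (adjusted p = 0.343) and Grem1 at −1.20 ± 0.49 (adjusted p = 0.392), against −1.46 and −2.09 over all mesenchymal cells. In Acta2/Tagln cells, 7 of the 10 genes passed the filter on low counts, and 2 of them were at an unadjusted p under 0.05, as were 990 of all 9953 genes. None of the 7 was called by DESeq2, which called 8 of all genes, or by edgeR, which called 0.141%. In Sox10 cells 6 genes passed the filter, with 2 at an unadjusted p under 0.05, as were 1244 of all 12674 genes. DESeq2 called none of the 6 and 68 of all genes, and edgeR none of the 6 and 0.0395% of all genes. In neural cells 9 genes passed it, with 1 at an unadjusted p under 0.05 and none by DESeq2, which called 47 of all genes, and edgeR called 0% of all genes (643 of 15259 at an unadjusted p under 0.05). Acvr2b had a positive and Bmpr1a and Bmpr2 a negative estimate in all 6 gates, also when scaled by total counts, and none of them passed in the main fits. These gates share the same 4 libraries, and the Foxf1-positive, Hox3-positive and Acta2/Tagln cells are part of the mesenchymal gate. In Sox10 cells the alternatives reached 0.168 for Bmpr1a and 0.0072 for Bmpr2. Acvr2b in Sox10 cells stayed uncalled in 10 of 11 alternatives, and Bmpr2 in Foxf1-positive cells in 12 of 13.

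Whether the genotype difference itself depended on Foxf1 was tested as an interaction with the library as a block. Of the 10 genes 3 passed, against 1.65% of 14930 genes. Grem1 in Foxf1-negative mesenchymal cells was at 1.46 and 1.33 scaled CPM in the controls and 0.444 and 0.584 in the nulls, so its null level was lower there too, and the log2 difference between genotypes was more negative in Foxf1-positive cells by 1.97 ± 0.41 (interaction −1.97, adjusted p = 0.0465). This call was lost in 5 of 11 alternatives, among them those without either control library (−1.89, adjusted p = 0.135, without replicate 1, and −2.14, adjusted p = 0.2, without replicate 2), while it was −2.08 (adjusted p = 0.0157) without cells holding Sox10 or neural-marker UMIs. Bmp4 was at 21.9 and 27.9 in the control and 14 and 18.8 in the null Foxf1-negative cells, and its interaction was 0.80 ± 0.12 (adjusted p = 0.012). That interaction was 0.22 (adjusted p = 0.561) once cells with Sox10 or neural-marker UMIs were left out. It was 0.87 (adjusted p = 0.0667) without control replicate 2. Acvr2a had an interaction of −0.78 ± 0.16 (adjusted p = 0.0468), which no longer passed in 5 of 11 alternatives, among them the ones without control replicate 2 (−0.69, adjusted p = 0.362) and without cells holding Sox10 or neural-marker UMIs (−0.60, adjusted p = 0.0931). Bmp2 had an estimate of 1.37 ± 0.31 that missed the threshold (adjusted p = 0.0638) and passed without Tbx1 null replicate 2 (1.81, adjusted p = 7.4e-06).

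**Figure D3:**
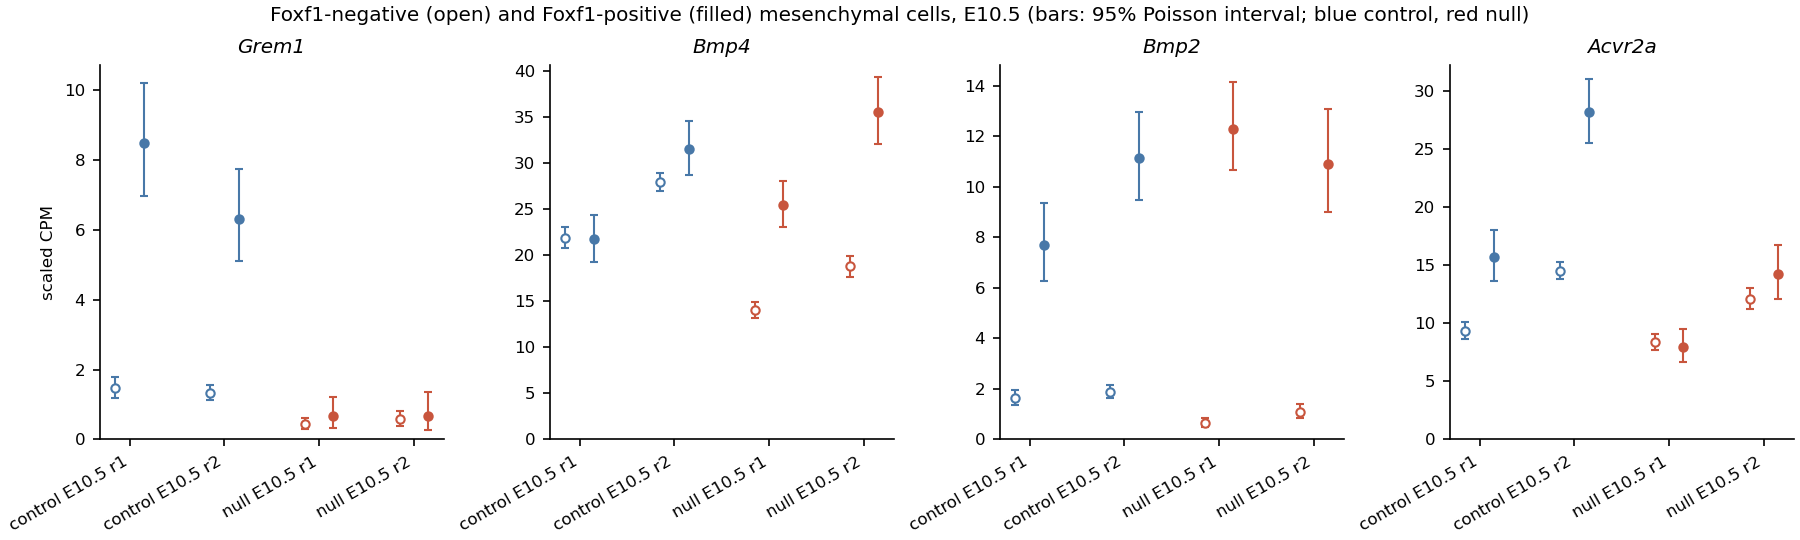
Scaled CPM (y axis, linear, from 0) of Grem1, Bmp4, Bmp2 and Acvr2a in Foxf1-negative (open) and Foxf1-positive (filled) mesenchymal cells of the 4 libraries of E10.5 (x axis), blue for control and red for Tbx1 null, with 95% Poisson bars. Grem1 rises from 1.46 and 1.33 to 8.47 and 6.31 between the open and filled points of the controls, and its null points are all under 0.7.

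Foxf1-positive cells were then compared with Foxf1-negative mesenchymal cells of the same 4 libraries. Of the 10 genes 4 were higher and 1 was lower in Foxf1-positive cells, against 18.5% of 14036 genes called in either direction, with a median log2 fold change of 0.49 over the 10 genes and 0.01 over all genes. Bmp2 was at 7.70, 11.1, 12.3 and 10.9 scaled CPM in Foxf1-positive cells and at 1.64, 1.88, 0.646 and 1.09 in Foxf1-negative cells, a rise of 3.04 ± 0.30 (8.23-fold, adjusted p = 0.000739) with no overlap. Bmp5 was higher by 1.06 ± 0.13 (adjusted p = 0.00171; 1.03, adjusted p = 0.0862, after thinning to 5000 UMIs) and Bmpr2 by 0.50 ± 0.06 (adjusted p = 0.00178). Bmp7 was lower by 1.77 ± 0.33 (log2 fold change −1.77, adjusted p = 0.0104). Grem1 was higher by 1.77 ± 0.39 (adjusted p = 0.0185), a mean over genotypes that its interaction shows to differ, and the call was lost without control replicate 1 (1.33, adjusted p = 0.141) or replicate 2 (1.52, adjusted p = 0.068). Bmp4 did not pass (0.49 ± 0.16, adjusted p = 0.073), nor did Bmpr1b (−0.57 ± 0.18), Acvr2a (0.50 ± 0.17), Bmpr1a (0.17 ± 0.05) or Acvr2b (0.03 ± 0.04). Without cells holding Sox10 or neural-marker UMIs the 5 calls stood, Acvr2a (0.68, adjusted p = 0.00972) and Bmpr1b (−0.70, adjusted p = 0.0147) passed too, and Bmp4 was at 0.10 (adjusted p = 0.58).

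Acta2/Tagln cells, the mesenchymal cells with at least 10 UMIs of these 2 smooth muscle genes in sum, were few, at 83 and 153 in the controls and 47 and 57 in the nulls of E10.5. All 5 smooth muscle check genes (Cnn1, Myl9, Myh11, Tpm2, Rgs5) were detected in each, at a summed 1404 to 1965 CPM against 100 to 111 CPM in other mesenchymal cells. Bmp2 reached 29.0, 23.5, 40.4 and 21.6 scaled CPM in these cells and 1.77 to 2.44 in the other mesenchymal cells, a rise of 3.76 ± 0.22 (13.6-fold, adjusted p = 3.11e-07). Bmp4 was at 66.1, 58.9, 78.6 and 60.5 against 15.1 to 27.6, a rise of 1.70 ± 0.16 (adjusted p = 1.32e-05). Every Acta2/Tagln value of Bmp2 and Bmp4 was above every value in the other mesenchymal cells. Bmpr2 was higher by 0.97 ± 0.12 (adjusted p = 8.3e-05), and the type I receptor Bmpr1b was lower, with a log2 fold change of −2.05 ± 0.30 (adjusted p = 0.000326). Acvr2b was lower too (−0.49 ± 0.08, adjusted p = 0.000429), but not after thinning to 5000 UMIs (−0.38, adjusted p = 0.104). Bmpr1a, the other type I receptor, was even, at −0.03 ± 0.08 (adjusted p = 0.822). Bmpr1b was under the filter on low counts in the genotype test of this gate, so its estimate rests on low counts. Thus 3 genes rose and 2 fell, against 39.2% of 14020 genes called. Control replicate 1 of this gate carried 6 cardiomyocyte genes at a summed 1452 CPM, against 17.9, 15.9 and 162 CPM in the other 3 libraries; Bmp2 was at 21.6 to 40.4 scaled CPM in those 3, and without cells holding 2 or more cardiomyocyte-marker UMIs the 5 calls stood and Bmp7 passed as lower (−1.25, adjusted p = 0.0265), as it did without control replicate 1 (−1.39, adjusted p = 0.0297). Epithelial check genes were at 230 to 579 CPM in the gate, against 21.1 to 43.3 CPM in other mesenchymal cells, and 5 endothelial check genes were at 32.6 to 65.3 CPM against 2.05 to 5.78 CPM. The part of either in the result was not tested.

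At E9.5 the gate held 44 control and 47 null cells. Bmp2 was at 4.97 and 11.8 scaled CPM and Bmp4 at 21.5 and 19.3, each above the corresponding value over all mesenchymal cells of that stage, and cardiomyocyte genes summed to 1621 and 4401 CPM there.

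**Figure D4:**
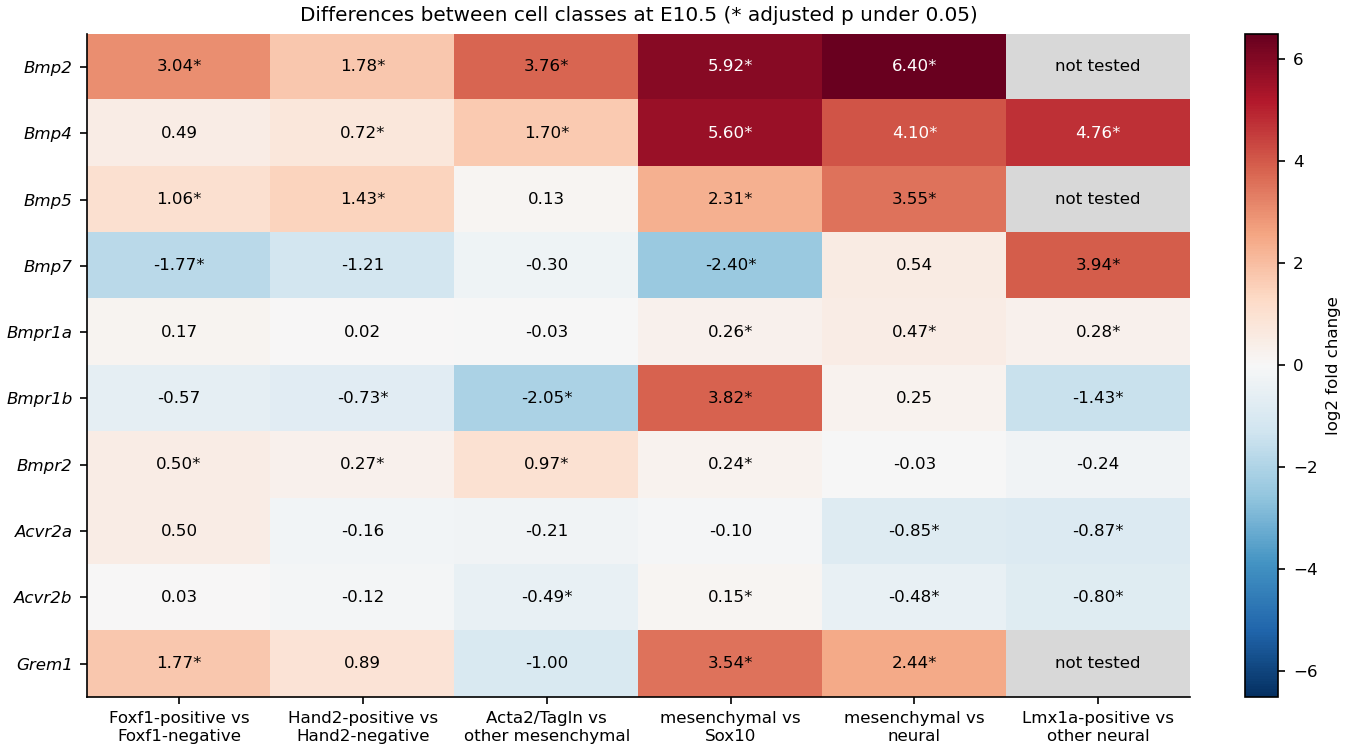
Heat map of the log2 fold change (colour scale, values printed in the cells) of the 10 genes (rows) in 6 comparisons of cell classes at E10.5 (columns), with an asterisk for an adjusted p under 0.05 and grey for genes under the filter on low counts. Bmp2 is higher in Foxf1-positive (3.04) and Acta2/Tagln (3.76) cells, and Bmp7 is negative in the Foxf1 and Sox10 columns and 3.94 in Lmx1a-positive neural cells; the Bmp2 values against Sox10 and neural cells rest on at most 3 UMIs per library there and are no measure of size.

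Among Foxf1-negative mesenchymal cells, those with Hand2, which encodes a bHLH factor of distal arch and outflow tract mesenchyme, were set against those without. Again 4 genes were higher and 1 was lower, against 14.8% of 14403 genes called. Bmp2 was at 3.15, 3.16, 1.38 and 2.33 scaled CPM in Hand2-positive cells and 0.801, 1.07, 0.345 and 0.706 in Hand2-negative cells (1.78 ± 0.16, adjusted p = 0.00288). Bmp5 was higher by 1.43 ± 0.30, Bmp4 by 0.72 ± 0.17 and Bmpr2 by 0.27 ± 0.05, and Bmpr1b was at −0.73 ± 0.18, with adjusted p from 0.0158 to 0.0454. Of these, Bmp2 alone passed in every alternative. Without control replicate 1 it was the only call, without control replicate 2 there were 3 and without Tbx1 null replicate 2 there were 2. Over all genes the 2128 calls became 703, 1919 and 1096 in the same fits. The Bmp4 difference was 0.42 (adjusted p = 0.23) without cells holding Sox10 or neural-marker UMIs. Bmp7 missed the threshold (−1.21 ± 0.32, adjusted p = 0.0528) and passed without those cells (−2.06, adjusted p = 0.00151).

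Sox10 cells, the glial and early migratory crest, had the reverse ligand pattern. Bmp7 was at 23.8 and 14.7 scaled CPM in control and 37.7 and 25.6 in null Sox10 cells of E10.5, all above the mesenchymal values, and was lower in mesenchymal cells (log2 fold change −2.40 ± 0.20, adjusted p = 0.000262). It stood at 11.0 at E8.5 and at 10.9 and 9.28 at E9.5 in Sox10 cells, so every library had its Sox10 value above its mesenchymal one. Bmp4 was at 0, 0.381, 0.256 and 0.861 in Sox10 cells and was higher in mesenchymal cells by 5.60 ± 0.30 (adjusted p = 5.22e-05). Bmp2 had 3 UMIs in the Sox10 cells of all 4 libraries together, all in Tbx1 null replicate 1, and also passed as higher in mesenchymal cells (adjusted p = 0.000282). Bmpr1b was at 0.320 to 0.982 in Sox10 cells, lower than in mesenchymal cells by a log2 difference of 3.82 ± 0.27, while the other receptors were close to even, with mesenchymal cells higher by 0.26 ± 0.06 for Bmpr1a and 0.24 ± 0.05 for Bmpr2. Acvr2b passed at 0.15 ± 0.05 but not without any 1 of the 4 libraries (adjusted p = 0.0575 to 0.146). Grem1 was also higher in mesenchymal cells (adjusted p = 0.00205), with 0 to 3 UMIs per library in Sox10 cells, as was Bmp5 (2.31 ± 0.26). Thus 9 of the 10 genes passed, 8 of them higher in mesenchymal cells, against 40.2% of 14594 genes.

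Against neural cells, mesenchymal cells were higher for 5 genes and lower for 2, with 46.8% of 15563 genes called. Bmp2 (at most 3 UMIs in the neural cells of a library, adjusted p = 0.0014), Bmp4 (4.10 ± 0.28), Bmp5 (3.55 ± 0.36), Grem1 (2.44 ± 0.57, adjusted p = 0.0175) and Bmpr1a (0.47 ± 0.08) were the higher genes. The activin-type receptors Acvr2a (−0.85 ± 0.07) and Acvr2b (−0.48 ± 0.07) were the lower ones. Acvr2a was at 19.1, 28.8, 16.1 and 21.1 scaled CPM in the neural cells of E10.5, above the mesenchymal value of the same library in all 4. Grem1 changed place with stage: at E9.5 it was at 1.46 and 1.56 scaled CPM in neural cells against 0.602 and 0.301 in mesenchymal cells, and at E10.5 it was at 0.137 to 0.266 in neural cells. That change was not tested.

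Within the neural gate, cells with at least 1 UMI of Lmx1a, a marker of the roof plate, numbered 57 to 196 per E10.5 library. The roof plate is a dorsal signalling centre known to secrete BMPs. Bmp7 was at 24.3, 24.2, 29.6 and 38.7 scaled CPM in these cells and at 1.48, 1.49, 2.27 and 2.55 in other neural cells (3.94 ± 0.17, adjusted p = 3.33e-08). Bmp4 was at 7.90, 26.3, 7.30 and 28.3 against 0.427, 0.861, 0.304 and 0.901 (4.76 ± 0.26, adjusted p = 2.41e-07). The 2 libraries numbered 2 were the higher ones for Bmp4 in both genotypes. The other receptors called ran the other way, with Bmpr1b at −1.43 ± 0.23, Acvr2a at −0.87 ± 0.14 and Acvr2b at −0.80 ± 0.09. The Bmpr1b and Acvr2a calls were lost after thinning to 5000 UMIs (−1.14, adjusted p = 0.455, and −1.06, adjusted p = 0.155). Bmpr1a was slightly higher (0.28 ± 0.09, adjusted p = 0.0287; adjusted p = 0.0781 to 0.101 when control replicate 2 or either null library was left out). So 6 of the 7 genes tested passed, against 37.8% of 12672 genes, and Bmp2, Bmp5 and Grem1 were under the filter. Epithelial check genes were at 156 to 186 CPM in these cells. Acta2 and Tagln summed to 6.32 CPM in control replicate 1 and 34.3 CPM in control replicate 2. The part of either in the result was not tested. At E8.5 the 71 Lmx1a-positive cells already held Bmp4 at 21.3 and Bmp7 at 12.4 scaled CPM, and Grem1 at 4.82 from 7 UMIs.

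**Figure D5:**
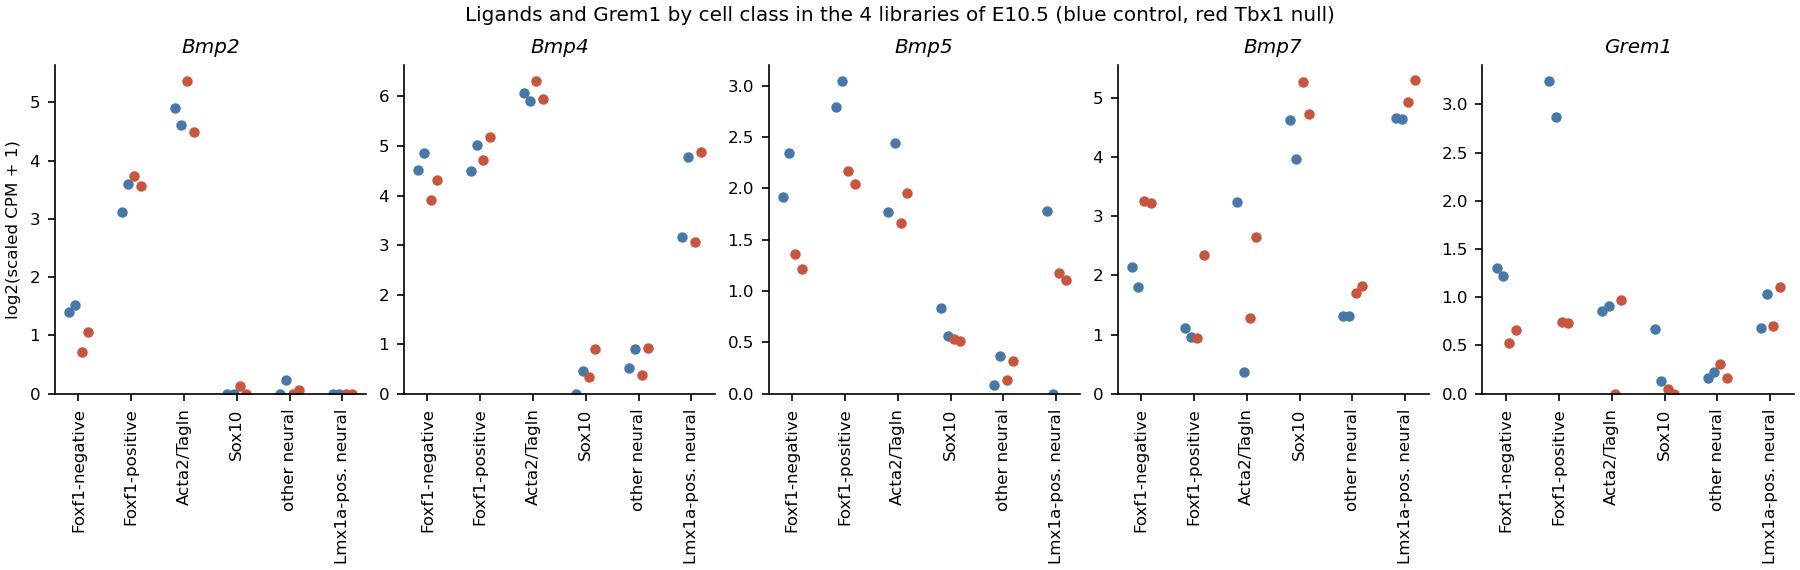
The log2 of scaled CPM plus 1 (y axis) of the 4 ligands and Grem1 in 6 cell classes (x axis) of the 4 libraries of E10.5, 1 point per library, blue for control and red for Tbx1 null. Bmp2 is highest in Acta2/Tagln cells and near 0 outside the mesenchyme, Bmp7 is highest in Sox10 and Lmx1a-positive neural cells, and Grem1 is highest in Foxf1-positive cells of the 2 controls.

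The other 47 genes of the pathway, in 5 lists, showed no call between the genotypes in mesenchymal cells: 0 of 5 other ligands, 7 receptors and co-receptors, 14 antagonists, 6 Smads and 8 targets tested. The median log2 fold change was 0.65 for the targets and −0.42 for the 10 genes described here, against −0.02 over all genes. In the Foxf1 comparison, where 18.5% of all genes were called, calls were made in both directions. Of 7 receptors and co-receptors tested, 2 were higher in Foxf1-positive cells, Acvrl1 (2.31 ± 0.17), a type I receptor best known from endothelium, and Bambi (0.61 ± 0.10), a decoy receptor, and 1 was lower, Rgmb (−0.53 ± 0.08), a co-receptor. Of 13 antagonists, 3 were higher and 4 were lower. The largest rises were those of Sostdc1 (1.96 ± 0.38) and Fstl3 (0.90 ± 0.20), and the largest falls those of Sost (−3.62 ± 0.56) and Nog (−2.09 ± 0.33), the gene of Noggin. Sostdc1, which encodes a secreted antagonist of BMP and WNT signalling, was at 35.4 and 29.9 scaled CPM in control and 1.35 and 19.3 in null Foxf1-positive cells. Among 4 other ligands Gdf6 was higher (0.72 ± 0.20) and Bmp6 lower (−3.68 ± 0.35). Of 6 Smads, 3 were higher and none lower, led by Smad9 (2.13 ± 0.18), a signal transducer, and the inhibitory Smad6 (0.60 ± 0.06). Of the 8 targets Id2 was higher (0.21 ± 0.06) and Msx1 (−2.59 ± 0.11) and Msx2 (−1.22 ± 0.15), homeobox genes that respond to BMP in arch mesenchyme, were lower. Msx1 was at 16.5 and 17.2 scaled CPM in control and 53.6 and 31.8 in null Foxf1-positive cells, and at 134 and 100 in control and 249 and 208 in null Foxf1-negative cells.

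Likeness of pattern was measured as Pearson's r of log2(CPM + 1) over 30 profiles, each a library and 1 of 5 separate cell classes, among 8143 genes with at least 20 CPM in a profile. These profiles share libraries and depth, and r is given as a description. The genes most like Bmp2 were Fhl2 (r = 0.958), Tnni1 (0.951) and Rgs5 (0.950), and those most like Bmp4 were Col1a1 (0.957), Ccdc80 (0.955) and Igf1 (0.952). Grem1 had no close match, with Sostdc1 first at 0.728, then Tpd52l1 (0.709) and Gsc (0.706). Tpd52l1 was also first for Bmp5 (0.941). Bmp7 was followed by Sgsm3 (0.890), Vat1l (0.888) and Gltp (0.868), and Bmpr1b by Ebf3 (0.901), Hdgfl3 (0.889) and Meis2 (0.887). Bmpr2 had the highest match of all, to Picalm (0.986), and Bmpr1a was led by Cntln (0.961), Acvr2b by Ctbp1 (0.924) and Acvr2a by 5031425E22Rik (0.929).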

How the data were processed

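The authors aligned reads to mm10 with Cell Ranger 6.0.1 and deposited UMI counts per gene and cell for barcodes called as cells, without normalization. Barcodes with under 1000 genes or over 10% mitochondrial UMIs were left out, and the highest Scrublet scores (scanpy 1.11.5), 0.8% of barcodes per 1000 barcodes, were removed as doublets. Gates used the UMIs of marker genes in each cell. Counts were summed per library and gate and tested with edgeR 4.0.16 (TMM, filterByExpr, quasi-likelihood), adjusted over all genes; E10.5 had 2 control and 2 Tbx1 null libraries. Contrasts between classes had the library as a block. Alternatives were DESeq2 1.42.0, its size factors, no filter, all barcodes, thinning, stricter gates and leaving out each library; scaling without TMM, gates without marker-bearing cells and the stage by genotype test were added after seeing the data. Members and lists were chosen with earlier results of these data known. Named: the 10 genes, and of the pathway lists up to 2 rises and 2 falls past the threshold in the mesenchymal genotype and Foxf1 comparisons. Replicate numbers were not taken to pair the samples.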

Additional observations from a re-analysis of the deposited data

Results flagged for a closer look

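In 3 genes the difference between Tbx1 null and control libraries of E10.5 differed between Foxf1-positive and Foxf1-negative mesenchymal cells by the test of that difference (edgeR interaction, adjusted over all genes). Grem1 had an interaction of −1.97 ± 0.41 (adjusted p = 0.0465), with both null values below both control values in each class. This call was lost in 5 of 11 alternatives, among them those without either control library. Bmp4 had an interaction of 0.80 ± 0.12 (adjusted p = 0.012), which was 0.22 without mesenchymal cells holding Sox10 or neural-marker UMIs. Acvr2a had an interaction of −0.78 ± 0.16 (adjusted p = 0.0468), a call lost in 5 of 11 alternatives, among them the one without those cells (−0.60, adjusted p = 0.0931). No gene level was tested for a single outlying library, since no group had 4 or more libraries.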

How the results depend on the processing

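Counts below are of the 10 genes called. Between genotypes in mesenchymal cells the count of 0 became 4 without the filter on low counts, 4 with DESeq2 and 1 with the replicate number as a block; in Foxf1-positive cells the count of 1 became 2 without the filter and 2 with the block, and 1 to 4 when a library was left out; in Hox3-positive cells it became 1 with DESeq2, and in Sox10 cells 0 to 1 when a library was left out. The block changed no other genotype count of the 10 genes; same-numbered libraries deviated together with correlations of 0.0578 (mesenchymal), 0.205 (Foxf1-positive) and 0.44 (neural) over genes, and with 2 pairs the numbers were not taken as pairs. Thinning to 5000 UMIs gave 3 calls in place of 5 in the Foxf1 comparison (Acvr2a now among them) and 2 in place of 6 in the Lmx1a comparison; Bmp7 and Grem1 in the first and Bmp4 in the second were then under the filter, and the other calls lost (Bmp5; Bmpr1a, Bmpr1b and Acvr2a) were tested and did not pass. Leaving out a library gave 1 to 5 calls in the Hand2 comparison, where 703 to 1919 of all genes were called in place of 2128. The interaction count of 3 became 5 without the filter, and 1 each with DESeq2, all barcodes, thinning, and without cells holding Sox10 or neural-marker UMIs, and 0 to 5 when a library was left out. The stage count of 4 became 7 without TMM and 0 to 3 when a library was left out, and its Bmp2 call was also lost with DESeq2 size factors (adjusted p = 0.0502), without the filter (0.0693) and after thinning (0.106). No estimate past the threshold changed sign in the alternatives run. Over all genes, the mesenchymal genotype count of 16 ranged from 0 (E9.5 and E10.5 together) to 1410 (no filter) and the Foxf1-positive count of 8 from 6 to 518, or 8 to 1296 without 1 library. Scaling by total counts moved the median of all genes from −0.02 to 0.17 (mesenchymal) and from −0.01 to 0.16 (Hox3-positive) between genotypes. Also over all genes, the mesenchymal count was 703 with DESeq2 and 121 with the block. The Foxf1-positive one was 465 without the filter and 518 with the block. The interaction count of 246 became 1254 without the filter, 302 with DESeq2, 251 with all barcodes, 79 after thinning and 276 without marker-bearing cells. The stage count of 3885 became 6352 without TMM. Thinning gave 677 in place of 2596 in the Foxf1 comparison and 1340 in place of 4794 in the Lmx1a comparison. The cause of these changes was not tested. With 2 libraries per genotype and 7 to 110 Grem1 UMIs per library in Foxf1-positive cells, depth limits the lower levels.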

Other observations

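Joint detection in single cells was counted after thinning to 5000 UMIs, as a description, since a sparse count of cells is no measure of joint expression. In mesenchymal cells of E10.5, Bmpr1a and Bmpr2 were both detected in 152 and 415 control and 109 and 139 null cells, 1.0 to 1.1 times the number that independent detection would give. Bmp4 and Grem1 were both detected in 7 and 19 control mesenchymal cells, 1.80 and 2.53 times that number, and in 3 and 2 null cells. In control Foxf1-positive cells, Bmp4 was detected in 6 of the 20 cells with Grem1 in replicate 1 and in 5 of the 23 in replicate 2.

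The number of Acta2/Tagln cells with Bmp2 after thinning was 9 of 83 and 17 of 152 in the controls and 6 of 47 and 10 of 57 in the nulls, and with Bmp4 25, 36, 12 and 16 of the same cells. In Sox10 cells of the same libraries, Bmp2 was detected in 0 of 184, 0 of 504, 2 of 1066 and 0 of 554.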
